A study of Homo sapiens with 4 samples.

Results

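The SERPINB genes of chromosome 18q21 are 10 neighbouring protein-coding genes. In the order of their position they are SERPINB5 (maspin), SERPINB12, SERPINB13, SERPINB4, SERPINB11, SERPINB3, SERPINB7, SERPINB2, SERPINB10 and SERPINB8. They were taken by name from the GENCODE annotation of hg19, out of 20098 protein-coding genes on the autosomes and X. The stretch examined ran from 100 kb before SERPINB5 to 100 kb past the end of SERPINB8 (chr18:61044191-61787013, 743 kb). It held 18 of the 60886 accessible loci that remained once overlapping peaks of all libraries had been merged.

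ATAC-seq, in which a transposase places sequencing adapters into open chromatin, had been performed on MCF10A cells and on G12V cells, with 2 libraries of each that the study's methods call biological replicates. MCF10A is an immortalized epithelial line from human breast that is not transformed, and the MCF10A libraries came from the parental line. G12V cells are the same line with an added HRAS that carries valine at residue 12 (genotype label H-RAS Gv12), brought in by a virus made from the vector pWZL hygro HRas V12 together with a vector for green fluorescent protein, and whether the culture grew from 1 clone or from many cells is not given in the sources used here. Both cell types were grown with epidermal growth factor, insulin, hydrocortisone, cholera toxin and horse serum, but G12V cells had also been transduced and selected with hygromycin for the HRAS vector, a step not given for the parental cells, so the effects of HRAS, of the vectors and of the selection cannot be told apart.

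Clade B serpins are intracellular proteins with the fold of the serine protease inhibitors. An inhibitory serpin offers its reactive loop to a protease and traps the enzyme when the loop is cut, whereas a few members, maspin among them, do not inhibit proteases by this route. Maspin is made by normal mammary epithelium, above all by its myoepithelial cells, and is known as a suppressor of invasion. The genes beside it are best known from skin, squamous epithelium and blood cells, and the comparison of MCF10A with G12V cells asks whether the chromatin of the cluster is open at different places after the oncogene has been added.

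The 4 peak lists differed in length, and this bears on each comparison below. They held 12888 peaks in MCF10A replicate 1, 34463 in MCF10A replicate 2, 14042 in G12V replicate 1 and 46673 in G12V replicate 2. The list of replicate 2 was the longer in both cell types, so a locus missing from a replicate 1 list may lie below the caller's threshold there and is not shown to be closed. Scores were therefore read as percentiles, the share of peaks of the same list with a lower score. As a check of the cell type, 3 of 7 promoters of basal and epithelial genes (KRT17, LAMB3 and ITGB4) had a peak in at least 1 library, while KRT5, KRT14, KRT6A and EPCAM had none, and 0 of 7 promoters of blood, endothelial, liver and muscle genes had one. Over all protein-coding promoters the share with a peak in at least 1 library was 49.7%, and the epithelial count is near that background. Where the ratio of observed to expected CpG was under 0.5, the share was 15.3%. All of the epithelial markers but ITGB4, and all of the other markers but MYOD1, lie there. These few markers do not settle the cell type. The epithelial promoters with a peak numbered 3 and 2 in MCF10A replicates 1 and 2, and 0 and 1 in G12V replicates 1 and 2. Their part in the results below was not tested.

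SERPINB5 and SERPINB8, at the opposite ends of the cluster, had a promoter peak in all 4 libraries, and the other 8 genes had no promoter peak in any library. A promoter is here the 1000 bp before a gene start and the 500 bp after it. Of all protein-coding promoters, 13.6% had a peak in all 4 libraries, 44.5% had one in at least 1 G12V library and 42.4% in at least 1 MCF10A library. For the cluster the count was 2 of 10 by each of these measures. Presence of a promoter peak therefore separated the genes from each other and did not separate MCF10A from G12V cells.

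No locus of the cluster was gained, meaning a peak in both G12V and neither MCF10A library, and none was lost, meaning the reverse. Over the whole series 3.2% of loci were gained and 2.14% were lost, so the absence of both kinds among 18 loci is near that background and says little about the cluster. Shared loci, with a peak in all 4 libraries, numbered 2 of 18, beside 8.36% of all loci. A further locus was crossed, with a peak in replicate 1 of one cell type and replicate 2 of the other, which 1.47% of all loci were. The remaining 15 loci comprised 10 seen in 1 library, 4 seen in replicate 2 of both cell types and 1 seen in 3 libraries.

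**Figure D1:**
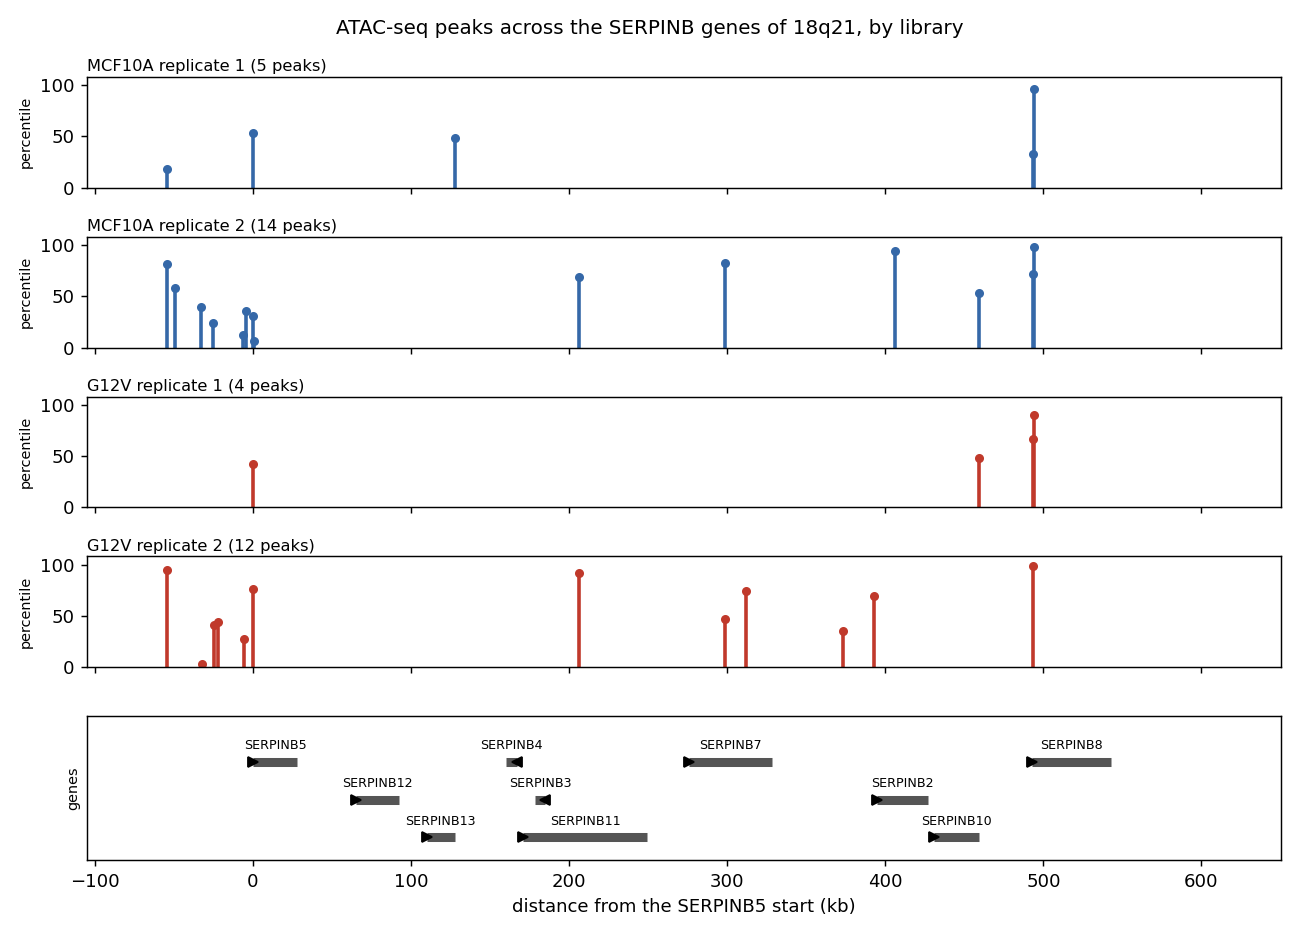
Peaks across the 743 kb by library, with the distance of each peak from the SERPINB5 start in kb on the horizontal axis and its score percentile within its own list on the vertical axis. MCF10A libraries are blue, G12V libraries are red, and the lowest panel shows the 10 genes with an arrowhead at each start. Peaks at the SERPINB5 and SERPINB8 starts appear in all 4 panels, and the replicate 2 panels hold 14 and 12 peaks against 5 and 4 in the replicate 1 panels.

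SERPINB5 encodes maspin and lies on the plus strand (ENSG00000206075, chr18:61144191-61172318). The 250 bases before its start, chr18:61143941-61144190 of hg19, lie inside the merged locus chr18:61143889-61144864, which had a peak in every library. They are shown as the sequence under the SERPINB5 peak, and capitals mark the 2 overlapping GC boxes (GGGCGG, searched on both strands).

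SERPINB5 upstream: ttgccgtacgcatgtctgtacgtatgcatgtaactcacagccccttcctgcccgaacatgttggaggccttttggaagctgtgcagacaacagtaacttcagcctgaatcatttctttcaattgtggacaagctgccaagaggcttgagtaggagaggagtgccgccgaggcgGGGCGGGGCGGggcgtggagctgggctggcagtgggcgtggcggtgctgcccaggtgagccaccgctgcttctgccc

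The GC boxes begin 77 and 72 bp before the start. Among all protein-coding genes 48.8% had at least 1 GC box in the same 250 bases, and none of the other 9 genes of the cluster did. The 20-base p53 pattern had at least 5 mismatches at each position of this stretch, with no position of the pattern held fixed. This count takes the pattern as a whole and does not show how closely a part of it, or a form with a gap, is matched. The study's supplement lists SERPINB5 among the genes measured by real time PCR, a method it used for the response to p53 activation. The legend of that figure, which does not name its genes, describes them as down-regulated after transformation. It also gives them a p53 motif in regions that lost accessibility. Those regions came from pooled replicates and were assigned to genes of the same chromatin domain. The lost loci and motif scans given here are therefore not the same measure. Whether p53 acts on SERPINB5 was not tested here.

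The peak at the SERPINB5 start was present in all 4 libraries, and its strength did not follow the cell type. In MCF10A cells it had a score of 66.29 in replicate 1 and 56.7 in replicate 2, which were the 52.9 and 30.5 percentiles of their lists. In G12V cells the score was 59.86 in replicate 1 and 127.72 in replicate 2, at the 42.6 and 75.8 percentiles. The 2 cell types overlapped, since MCF10A replicate 1 stood above G12V replicate 1 and MCF10A replicate 2 stood lowest of all. The mean percentile was 41.7 ± 15.9 in MCF10A and 59.2 ± 23.5 in G12V (SD, n = 2 each), a difference of 17.5 points that was smaller than the SD in G12V (two-sided exact permutation test, p = 0.667, where 2 libraries against 2 allow no p below 0.333). Between libraries of the same number the difference was -10.3 for replicate 1 and 45.4 for replicate 2, so its sign differed between the pairs.

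Among the 2730 promoters with a peak in every library, the SERPINB5 peak was a weak one. In MCF10A replicate 1, 29.2% of these promoters had a lower percentile, against 1.87% in MCF10A replicate 2, 17.5% in G12V replicate 1 and 8.86% in G12V replicate 2. The opposite sign in the 2 pairs was common among them, at 43.6%. Their median difference between cell types was 1.48 points, and 17.1% of them had a larger G12V minus MCF10A difference than SERPINB5.

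The extent of the SERPINB5 peak also varied between libraries. It spanned 358 bp in MCF10A replicate 1, 463 bp in G12V replicate 1 and 694 bp in G12V replicate 2. In MCF10A replicate 2 it was split into a peak of 435 bp over the start and a second of 378 bp inside the gene, whose percentile was 6.59. When each list was cut to its 12888 best peaks, the length of the shortest list, the SERPINB5 peak stood at percentile 52.9 in MCF10A replicate 1, 37.4 in G12V replicate 1 and 12.4 in G12V replicate 2. It was missing from MCF10A replicate 2, where its rank was 23960. The higher percentile in the full list of G12V replicate 2 thus became the lowest of the 3 that remained.

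The 60 kb before SERPINB5 held 8 of the 18 loci, and 7 of these were seen in replicate 2 libraries only. The nearest was 4104 bp before the start (chr18:61139686-61140087) and was found in MCF10A replicate 2 alone, at percentile 35.2. The next lay 5609 bp before the start (chr18:61137830-61138582), in MCF10A replicate 2 at percentile 12.7 and in G12V replicate 2 at percentile 27.1. At 24619 bp a peak appeared in MCF10A replicate 2 (percentile 24.3) and in G12V replicate 2 (percentile 41.0), and G12V replicate 2 alone had another at 21809 bp (percentile 43.9). All of these stood below the middle of their lists. At 48994 bp, MCF10A replicate 2 alone had a peak at percentile 58.0. The promoter of VPS4B, the gene before SERPINB5, whose product recycles the ESCRT membrane machinery, had a peak in 3 libraries at percentiles 18.5, 81.4 and 94.7 (MCF10A replicates 1 and 2 and G12V replicate 2).

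**Figure D2:**
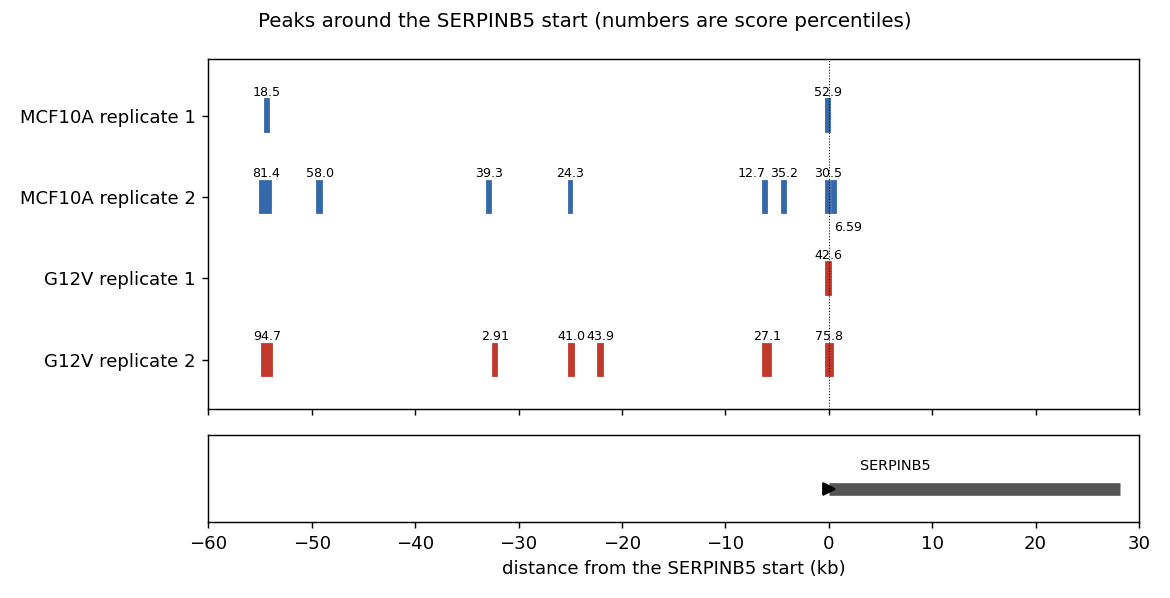
Peaks from 60 kb before to 30 kb after the SERPINB5 start, with one row per library (MCF10A blue, G12V red), the distance from the start in kb on the horizontal axis, box width as the extent of the peak and the score percentile printed above each box, except for the second MCF10A replicate 2 peak at the gene, whose 6.59 is printed below. The row of G12V replicate 1 holds a single peak, the one at the start.

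Farther from SERPINB5, both replicate 2 libraries had a peak at neighbouring positions that did not touch. The MCF10A peak (chr18:61111157-61111529, percentile 39.3) was 32662 bp from the start, and the G12V peak (chr18:61111713-61112093, percentile 2.91) was 32098 bp from it. Their central 150 bases are shown since they were the only windows of the cluster with the AP-1 letters TGACTCA on either strand, the site of FOS and JUN proteins that act downstream of RAS. They were picked for display after their values were seen, and capitals mark the match, which reads TGAGTCA on the plus strand.

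MCF10A replicate 2, chr18:61111268-61111417: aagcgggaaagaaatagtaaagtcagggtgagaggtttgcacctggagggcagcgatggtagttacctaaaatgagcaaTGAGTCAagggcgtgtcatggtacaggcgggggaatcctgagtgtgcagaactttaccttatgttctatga
G12V replicate 2, chr18:61111828-61111977: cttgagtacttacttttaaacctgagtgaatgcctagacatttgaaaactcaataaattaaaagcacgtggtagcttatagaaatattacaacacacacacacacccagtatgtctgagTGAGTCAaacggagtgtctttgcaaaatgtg

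Each of these AP-1 matches was in a peak of 1 library, one for each cell type. The letters were present in 15.9% of all 60886 windows and in 2 of 18 windows of the cluster. The p53 pattern (up to 3 mismatches) was in 0 of 18 against 1.26% of all windows, the TEAD letters CATTCCA in 0 of 18 against 3.7%, and the grainyhead letters AACCNGTT in 0 of 18 against 0.856%, each on both strands.

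SERPINB8, which inhibits furin among other proteases, held the strongest peak of the cluster in each library (ENSG00000166401, plus strand, chr18:61637263-61687013). Its locus, chr18:61637024-61638733, covers the gene start and the first part of an intron, and overlaps an intron of HMSD. The central 150 bases of the G12V replicate 2 peak (chr18:61637804-61637953) have a GC content of 74.7%, against a median of 44.4% for the 18 windows of the cluster and 48.7% for all windows. They are printed as the clearest open sequence of the cluster, without capitals because the AP-1, CTCF, p53, TEAD and grainyhead patterns had no match in them. The GC box letters GGGCGG that they hold are not marked.

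SERPINB8 window: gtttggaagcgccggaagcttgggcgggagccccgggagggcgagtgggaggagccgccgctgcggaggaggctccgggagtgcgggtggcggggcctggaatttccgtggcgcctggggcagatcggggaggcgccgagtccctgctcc

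The SERPINB8 peak had a score of 154.83 in MCF10A replicate 1, 344.96 in MCF10A replicate 2, 115.91 in G12V replicate 1 and 476.64 in G12V replicate 2. As percentiles these were 96.7, 98.1, 89.7 and 98.4. The scores were higher in the longer replicate 2 list of each cell type, while every percentile was near the top of its list. The mean percentile was 97.4 ± 1.02 in MCF10A and 94.0 ± 6.14 in G12V (SD, n = 2 each), a difference of -3.35 points with overlapping cell types (two-sided exact permutation test, p = 1.0, a test chosen after the values were seen). The 3 lists other than G12V replicate 2 resolved a second, weaker peak over the start itself, at percentile 33.3 in MCF10A replicate 1, 72.1 in MCF10A replicate 2 and 66.7 in G12V replicate 1. In these 3 lists the percentiles tested belong to the stronger peak, which began past the gene start, at 61637674, 61637665 and 61637694. It touched only the last part of the promoter. In G12V replicate 2 a single peak of 1710 bp covered the place of both peaks.

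**Figure D3:**
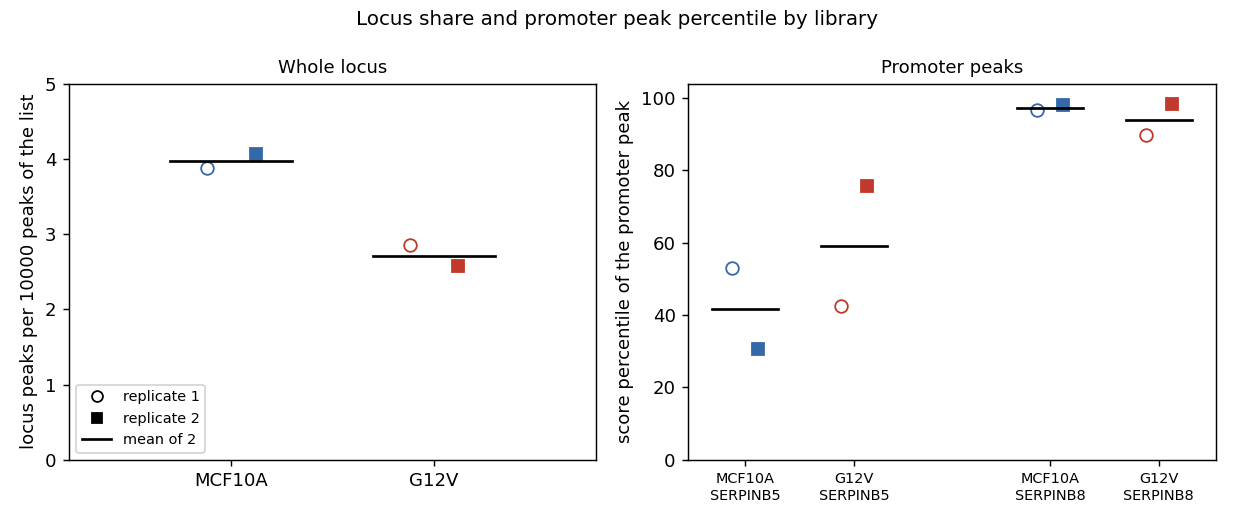
Left, peaks in the 743 kb per 10000 peaks of each list. Right, score percentile of the strongest peak that touches the promoter of SERPINB5 or SERPINB8. Open circles are replicate 1, filled squares replicate 2 and black lines the mean of the 2 libraries (MCF10A blue, G12V red), and the cell types separate on the left but overlap for both genes on the right.

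SERPINB2, the plasminogen activator inhibitor of monocytes and keratinocytes that blocks urokinase, had no promoter peak but had peaks of single libraries on both sides of its GENCODE gene start (ENSG00000197632, plus strand, chr18:61538926-61571122). MCF10A replicate 2 had a peak inside an intron, 10831 bp past the gene start (chr18:61549757-61550540), with a score of 228.32, percentile 94.0 and rank 2061. The other 3 lists had no peak there. Of the 9615 loci of the series seen in MCF10A replicate 2 alone, 5 had a percentile this high or higher, itself included. Whether it marks the cell type or this 1 library cannot be told from the lists, because MCF10A replicate 1 lacked it. The central 150 bases (chr18:61550074-61550223), picked after the values were seen, are given for that contrast and held no match to the same 5 patterns.

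SERPINB2 intron window: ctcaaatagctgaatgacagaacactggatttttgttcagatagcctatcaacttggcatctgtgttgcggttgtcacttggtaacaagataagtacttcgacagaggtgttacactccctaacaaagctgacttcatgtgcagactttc

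On the other side of the GENCODE start of SERPINB2, the peaks belonged to G12V replicate 2. One lay 1266 bp before the GENCODE start (chr18:61536672-61537660, percentile 69.8, score 107.97) and another 21210 bp before it (chr18:61517364-61517716, percentile 35.3). The first of these stood above 93.2% of the 21038 loci seen in G12V replicate 2 alone. With promoters widened to 2000 bp either side, SERPINB2 joined them as the third member with a promoter peak, in G12V cells only and through this 1 library. The GENCODE start belongs to 1 coding transcript, whereas 2 begin inside the gene at position 61554939. The only RefSeq promoter of SERPINB2 used here lies at that internal start, and no library had a peak in its promoter. The intron peak of MCF10A replicate 2 lay 4399 bp before the internal start, and neither peak of G12V replicate 2 was nearer to it. Which start was in use was not tested. The distance from the GENCODE start to the nearest peak was 98280 bp in MCF10A replicate 1, 10831 bp in MCF10A replicate 2, 64563 bp in G12V replicate 1 and 1266 bp in G12V replicate 2.

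SERPINB7 (megsin), an inhibitor found in upper epidermis and kidney mesangium, had a peak at an internal start and none at its first one (ENSG00000166396, plus strand, chr18:61420169-61472610). A locus at chr18:61442465-61443053 covered coding transcript starts 22440 and 22483 bp into the gene. Its percentile was 82.7 in MCF10A replicate 2 and 46.6 in G12V replicate 2, with scores of 139.24 and 69.21, and neither replicate 1 list held it. A second locus in a SERPINB7 intron (chr18:61455816-61456314) had a peak in G12V replicate 2 alone, at percentile 74.1, above 95.6% of the loci seen in that library alone. When the promoter of every coding transcript was counted, SERPINB7 became the third member with a promoter peak in both cell types. Of its 6 distinct coding starts, 2 had a peak, each in replicate 2 of both cell types.

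SERPINB11, a relative with little known inhibitory activity in humans, spans the neighbouring SERPINB3 and its own promoter had no peak (ENSG00000206072, plus strand, chr18:61314813-61393666). A locus in its intron, chr18:61350400-61351053, was among the stronger ones of the cluster. Its percentile was 68.3 in MCF10A replicate 2, with a score of 98.05, and 91.8 in G12V replicate 2, with a score of 247.33. Its rank was 10923 in MCF10A replicate 2 and 3810 in G12V replicate 2, and neither replicate 1 list held it. By gene start this locus was nearest to SERPINB3, at 21273 bp, and by coding transcript start it was nearest to SERPINB11, at 18485 bp.

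SERPINB10 (bomapin), a nuclear serpin of blood cell precursors, had the lowest CpG ratio of the 10 promoters and no peak at its start (ENSG00000242550, plus strand, chr18:61575192-61603345). The crossed locus of the cluster, chr18:61603285-61603950, overlapped its 3′ end, with percentile 53.5 in MCF10A replicate 2 and 48.5 in G12V replicate 1. The central window of this locus lies just past the gene, at chr18:61603543-61603692, and was the only 1 of 18 with a match to the CTCF pattern (up to 1 mismatch, both strands), which 6.56% of all windows held. The match had 0 mismatches and is in capitals, and the window was picked for display after this was seen.

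SERPINB10 downstream window: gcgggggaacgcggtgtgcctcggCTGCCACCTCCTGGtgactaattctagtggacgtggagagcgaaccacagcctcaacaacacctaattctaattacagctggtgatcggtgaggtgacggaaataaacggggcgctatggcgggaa

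CTCF is a DNA-binding protein that helps to form the borders of chromatin loops, and a match of letters does not show that it was bound. The locus was present in 1 library of each cell type, and so it did not separate MCF10A from G12V cells.

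SERPINB12 and SERPINB13 lay in a stretch of 127283 bp (chr18:61144865-61272147) where no library had a peak. SERPINB12 inhibits trypsin-like proteases (ENSG00000166634, plus strand, chr18:61209602-61236562), and its nearest peak was between 62546 and 65182 bp from the start in the 4 libraries. SERPINB13 (headpin), an inhibitor of cathepsins K and L in squamous epithelium, lies at chr18:61254223-61271873 (ENSG00000197641, plus strand). MCF10A replicate 1 had a peak just past its 3′ end (chr18:61272148-61272466, percentile 48.4), 17925 bp from the start. In the other libraries the nearest peak to its start was 96177 bp or more away. This was the only locus of the cluster found in a replicate 1 library alone.

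SERPINB3 and SERPINB4, the squamous cell carcinoma antigens, lie on the minus strand and are near copies of each other. SERPINB3 (ENSG00000057149, chr18:61322431-61329127) inhibits cysteine proteases such as cathepsins K, L and S, and SERPINB4 (ENSG00000206073, chr18:61304493-61311490) inhibits cathepsin G and mast cell chymase. The 250 bases before each RefSeq start are shown in the direction of the gene because their likeness limits what uniquely aligned reads can show here, and capitals mark the bases that differ.

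SERPINB3, chr18:61329128-61329377, minus strand: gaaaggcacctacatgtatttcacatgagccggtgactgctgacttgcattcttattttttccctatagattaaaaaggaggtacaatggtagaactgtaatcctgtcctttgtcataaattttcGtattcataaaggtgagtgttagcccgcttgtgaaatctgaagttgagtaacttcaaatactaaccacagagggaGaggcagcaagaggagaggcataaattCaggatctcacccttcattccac
SERPINB4, chr18:61311491-61311740, minus strand: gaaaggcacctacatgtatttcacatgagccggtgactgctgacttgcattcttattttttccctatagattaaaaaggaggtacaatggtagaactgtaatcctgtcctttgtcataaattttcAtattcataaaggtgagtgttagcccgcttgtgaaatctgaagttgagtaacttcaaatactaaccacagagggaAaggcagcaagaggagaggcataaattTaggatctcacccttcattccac

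The 2 sequences differ at 3 of 250 bases, an identity of 98.8%, and share an unbroken run of 125 bases. The authors kept reads with 1 position in the genome and gave 51 as the read length to the peak caller. Only 40.1% of the 51-base sequences of the SERPINB3 promoter occur once in the genome, and the share was 40.1% for SERPINB4 as well. For the other 8 promoters it was between 95.1% and 100.0%. The absence of a peak at SERPINB3 and SERPINB4 is therefore not informative to the same degree as that at the other genes. No library had a peak in either gene body, where 78.5% (SERPINB3) and 77.7% (SERPINB4) of such sequences occur once.

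The starts of SERPINB3, SERPINB4 and SERPINB11 shared a stretch of 77933 bp without a peak (chr18:61272467-61350399), in which 87.4% of 51-base sequences occur once. The start of SERPINB7 lay in a stretch of 91411 bp without a peak (chr18:61351054-61442464) where the share was 96.6%. The longest such stretch, 148280 bp, ran from the SERPINB8 locus to the end of the flank (chr18:61638734-61787013) and held no first start of the 10 genes, although 2 internal coding starts of SERPINB8 lie in it. A start without a promoter peak lies in some stretch empty in every library by definition, so only the length of the stretch adds to that result. For 6 of the 8 genes without a promoter peak it was 1 of 3 stretches of 77933 bp or more. The starts of SERPINB2 and SERPINB10 lay in stretches shorter than 61049 bp.

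**Figure D4:**
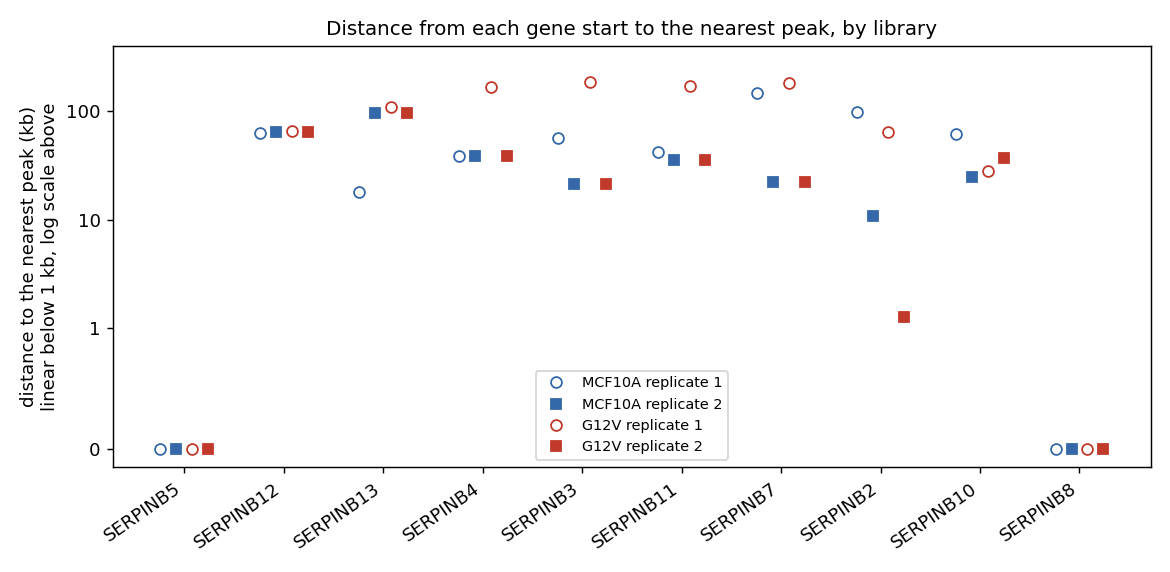
Distance from each gene start to the nearest peak of each library in kb, on an axis that is linear below 1 kb and logarithmic above (open circles replicate 1, filled squares replicate 2, MCF10A blue, G12V red). SERPINB5 and SERPINB8 lie at 0 in all 4 libraries, and SERPINB2 ranges from 1266 bp to 98280 bp.

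The 2 genes with a promoter peak also had the highest CpG content of the 10 promoters. The CpG ratio, observed over expected from the C and G content, was 0.475 for SERPINB5 and 0.56 for SERPINB8. The other 8 promoters ranged from 0.0934 at SERPINB10 to 0.321 at SERPINB2. Over all protein-coding promoters, 1.41% of the 7391 with a ratio under 0.5 had a peak in all 4 libraries and 15.3% in any library, against 20.7% and 69.6% of the 12707 with a ratio of 0.5 or more. SERPINB5 thus stood on the side of the split where a peak in every library was rare, and SERPINB8 on the other.

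**Figure D5:**
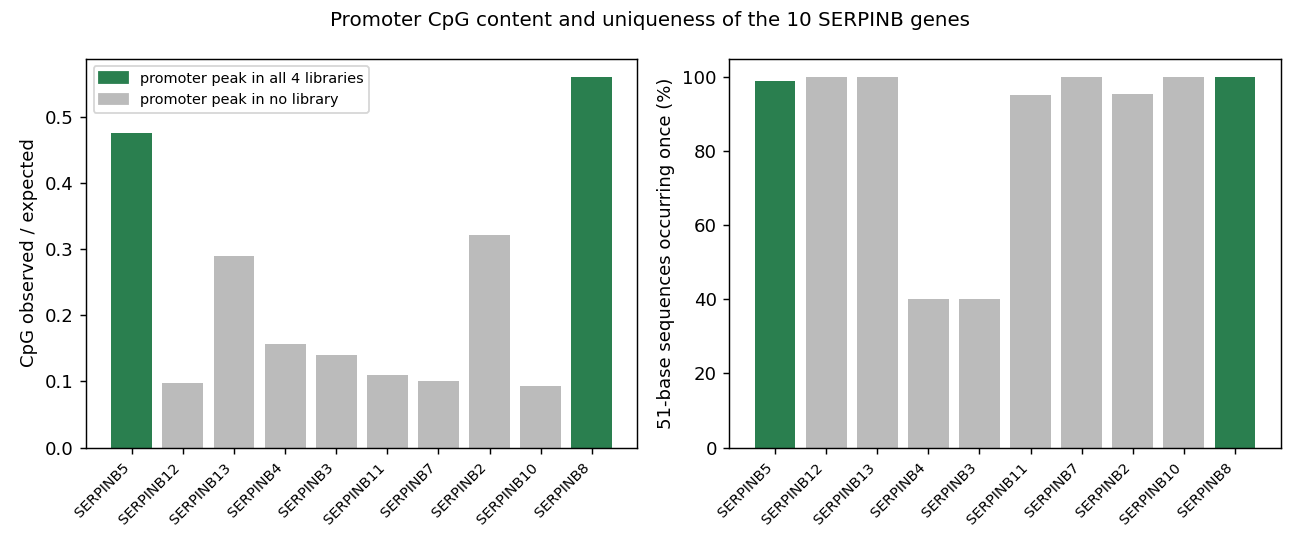
Left, CpG observed over expected for the promoter of each of the 10 genes; right, percent of the promoter's 51-base sequences that occur once in the genome. Green bars are promoters with a peak in all 4 libraries and grey bars promoters with none, and the 2 green bars are the highest on the left while SERPINB3 and SERPINB4 are the lowest on the right, at 40.1%.

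Relative to the length of the lists, peaks in the cluster were fewer in G12V cells, by an amount that the design could not test at the usual threshold. MCF10A replicates 1 and 2 had 5 and 14 peaks in the 743 kb, and G12V replicates 1 and 2 had 4 and 12. These are counts of peaks and not of loci. The SERPINB5 and SERPINB8 loci each held 2 peaks in MCF10A replicate 2 and 1 in G12V replicate 2. At SERPINB8 both replicate 1 lists also held 2. Per 10000 peaks of the list the counts of the libraries, in the same order, were 3.88, 4.06, 2.85 and 2.57. The cell types did not overlap, with a mean of 3.97 ± 0.129 in MCF10A and 2.71 ± 0.196 in G12V (SD, n = 2 each), a difference of -1.26 (two-sided exact permutation test, p = 0.333, the smallest this design allows). Counted in bases, the peaks of the cluster covered 380 and 385 of each 1000000 covered bases in MCF10A and 289 and 274 in G12V, a difference of -101 (exact permutation p = 0.333). The separation depended on the flanks and on the length of the lists. Over the span of the genes alone the difference was -0.538, and with lists of equal length it was -0.776, and in both cases the cell types overlapped (exact permutation p = 0.667 each).

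Chromosome 18 as a whole moved the same way. It held 2.06% and 2.16% of the list in MCF10A replicates 1 and 2, and 1.47% and 1.91% in G12V replicates 1 and 2. Of the chromosome 18 peaks, the cluster held 1.89% and 1.88% in MCF10A and 1.94% and 1.35% in G12V, so that within the chromosome the cell types overlapped. The part of this shift in the lower share of the cluster was not tested beyond these values. Outside the cluster, chromosome 18 had 22 gained and 33 lost loci of 1228.

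When a peak in either replicate was enough, 8 of the 18 loci were found in both cell types, 5 in MCF10A cells only and 5 in G12V cells only. Of these 10, the MCF10A loci were the 3 at 48994, 32662 and 4104 bp before SERPINB5, the one past SERPINB13 and the one in the SERPINB2 intron. The G12V loci were the 2 at 32098 and 21809 bp before SERPINB5, the SERPINB7 intron and the 2 before SERPINB2. Each of the 10 rested on 1 library. Over the whole series, 34.6% of loci were seen in G12V replicate 2 alone, 3.16% in G12V replicate 1 alone, and 3.2% were gained. For MCF10A cells, 15.8% were seen in replicate 2 alone, 2.88% in replicate 1 alone, and 2.14% were lost. The even split in the cluster was not tested against these shares.

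A smaller group of clade B serpins, SERPINB1, SERPINB6 and SERPINB9, lies on 6p25 and served as the comparison. With the same flanks it spans 339834 bp (chr6:2732566-3072399) and held 17 loci, or 5.0 per 100 kb, against 2.42 on 18q21. Of the 17 loci, 1 was gained, 0 were lost, 3 were shared and 1 was crossed. None of its 3 genes had a promoter peak in all 4 libraries, where 18q21 had 2 of 10. Per 10000 peaks it held 3.1, 2.61, 4.27 and 3.86 peaks in MCF10A replicates 1 and 2 and G12V replicates 1 and 2, so the order of the cell types was opposite to that on 18q21. This difference between the clusters was not tested.

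The promoters of 9 genes for proteases that clade B serpins are known to inhibit, or for their receptors, were read in the same way. None had a peak in all 4 libraries. PLAU, the urokinase gene, had a promoter peak in MCF10A replicate 2 (percentile 8.01) and G12V replicate 2 (percentile 57.2). PLAT, the tissue plasminogen activator gene, had one in G12V replicate 2 (percentile 19.0), and PLAUR, the urokinase receptor gene, had one in G12V replicate 1 (percentile 1.17). The promoters of CTSK, CTSL, CTSS, CTSG, CMA1 and FURIN had none, so 3 of 9 had a peak in at least 1 library, against 49.7% of all protein-coding promoters and 15.3% of those with a CpG ratio under 0.5, where all 9 lie.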

How the data were processed

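The deposited files are 4 MACS peak lists, 1 per library, with a position and a score for each peak. According to the methods of the study, the authors aligned reads to hg19 with Bowtie and discarded those that aligned to several places. Read starts were adjusted to the middle of the transposon insertion, and MACS was run without a model, with tags of 51 bases, fragments shifted by 75 bp, a local background of 25000 bp and a p-value limit of 0.0001. The score that the authors deposited is −10 times log10 of the p-value of a peak, and the lowest in each list was 40. The study pooled replicates for its own comparison, whereas these lists are per library. Read depth is unknown from them, and no interval or floor that needs it is given.

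Only peaks of the autosomes and X entered. Those that overlapped by at least 1 bp in any library were merged into loci and classed by the libraries with a peak. Motifs were searched in the central 150 bases of the peak with the highest percentile of each locus. Genes came from GENCODE release 44 mapped to GRCh37, the build of the files (PECAM1, a marker, was not found under that name among its protein-coding genes and was left out, and 1 epithelial marker is not reported here), and uniqueness was counted over every 51-base sequence of the GRCh37 primary assembly on both strands. RefSeq promoters of the members were placed in hg19 by exact sequence match, and entries for SERPINB10 and SERPINB11 were not used here. Differences between cell types were tested with the two-sided exact permutation test over libraries. The genes, marker lists and comparisons were chosen with earlier results of these data known. Genes to be named were the 10 members, the 6p25 group and the listed proteases and markers. VPS4B and HMSD are named because loci of the cluster lie at them, and windows outside the rule are said in the text to have been picked after their values were seen. The merging and classing of peaks and the motif scans were tested on simulated data. Python 3.11.15, numpy 2.4.6, scipy 1.17.1, pandas 2.3.3 and matplotlib 3.10.9 were used. Alternatives were the better 50% of each list, lists of equal length, other flanks, overlaps and promoter widths, leaving out each library and pairing by replicate number.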

Additional observations from a re-analysis of the deposited data

How the results depend on the processing

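The lower number of cluster peaks per 10000 in G12V kept its direction under each alternative run, from -0.538 with no flank to -1.55 with 200000 bp, and from -1.40 to -1.12 with 1 library left out. With lists of equal length it was -0.776 (exact permutation p = 0.667). Shared loci fell from 2 to 1 with the better 50% of each list and with lists of equal length. Gained and lost loci, 0 each, depended on the libraries used. Leaving out 1 library gave 0 to 5 gained loci, with 5 without G12V replicate 1, and 0 to 4 lost loci, with 4 without MCF10A replicate 1 and 1 without either MCF10A replicate 2 or G12V replicate 2. These follow from fewer lists having to hold or lack a peak.

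The sources do not say that equal replicate numbers mark a shared batch. As a replicate block, number 1 alone gave 1 gained and 2 lost loci, and number 2 alone gave 5 and 5. A peak in either replicate gave 5 and 5. With the block the difference per 10000 peaks was -1.26 (pairs -1.03 and -1.49, exact sign-flip p = 0.5, the smallest possible), and that in SERPINB5 percentile was 17.5 (exact sign-flip p = 1.0). The replicate differences of MCF10A and G12V correlated at r = -0.113 over 60886 loci, and in the crossed pairing, added after the data were seen, G12V replicate 1 with MCF10A replicate 2 gave 0 gained and 10 lost loci, and G12V replicate 2 with MCF10A replicate 1 gave 9 and 1. The SERPINB5 difference could not be computed at equal list length, because MCF10A replicate 2 then had no peak there. List length limits every absence reported.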

Other observations

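Of the 10 loci seen in a single library, the one in the SERPINB2 intron in MCF10A replicate 2 stood highest among its like, above 99.9% of the 9615 loci found in that library alone. The next highest were the G12V replicate 2 peaks in the SERPINB7 intron and before SERPINB2, above 95.6% and 93.2% of the 21038 loci found in that library alone. The lowest was the G12V replicate 2 peak with an AP-1 match before SERPINB5, above 4.96% of them.

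The 18 loci were made of replicate 2 peaks to a similar degree as the whole series. On 18q21 5 loci were found in G12V replicate 2 alone and 4 in MCF10A replicate 2 alone, and 4 in replicate 2 of both. Over the series these kinds made up 34.6%, 15.8% and 16.3% of all loci.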
